A study of Mus musculus with 4 samples.

Results

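The 10 genes described here build or regulate the meiotic chromosome axis: Sycp1, Sycp2, Sycp3, Syce1, Syce2, Syce3 and Tex12 of the synaptonemal complex, the HORMA domain genes Hormad1 and Hormad2, and Trip13. They were chosen as a list of gene symbols, and all 10 were found among the 23980 genes of the deposited table. Stranded polyA(+) RNA-seq was performed on leptotene/zygotene (L/Z) spermatocytes, germ cells in early meiotic prophase, sorted by FACS (fluorescence-activated cell sorting) from the testes of mice aged 3 to 4 weeks. Every library came from F1 hybrid animals of the strains C57BL6/J and MSM/Ms. A Dnmt3L heterozygote (control replicate 1) and a Pld6 wild type (WT, control replicate 2) were the controls, and a Dnmt3L knockout (KO) and a Pld6 KO, each with 1 library, were the mutants. In the study, RNA-seq of L/Z cells from such hybrids served to compare the alleles of genes near retrotransposons that MSM/Ms lacks. The comparison here asked how the levels of the 10 genes differed between these mutants and controls.

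Pld6 encodes a mitochondrial protein needed to make piRNAs, the small RNAs that silence retrotransposons in germ cells, and the product of Dnmt3l assists de novo DNA methylation. Germ cells of either knockout are known to be lost at about the stage that was sorted. The heterozygote carries 1 mutant allele, so the 2 controls do not share a genotype, and the labels do not say whether any libraries came from littermates. With 1 library per genotype, the mutant values are unreplicated. Any spread comes from the 2 unlike controls or, where the mutants were pooled, also from the 2 different mutants.

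The synaptonemal complex is the protein ladder that holds paired homologous chromosomes together along their length in meiotic prophase. SYCP2 and SYCP3 build its lateral elements on the chromosome axes, SYCP1 forms the transverse filaments that span between them, and SYCE1, SYCE2, SYCE3 and TEX12 form the central element where filaments from both sides meet. HORMAD1 and HORMAD2 coat axes that have not yet synapsed, where HORMAD1 promotes break formation and both act in checkpoint signalling. The AAA+ ATPase TRIP13 strips them from the axis as synapsis proceeds.

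The sequence just upstream of each gene was examined first, since the levels of most of these genes differed between the libraries in the same sense. RefSeq (GRCm38.p6, which has the coordinates of mm10) gives 13 promoter windows for the 10 genes, each of 300 bases from 250 before to 50 after the start. These motifs were searched on both strands: CACGTG, the E-box; TCCCGC, the core of the site of E2F factors; AACGG, a site of MYB factors; CNCCTCAG, a motif reported for STRA8, the factor of meiotic entry; and TGACGTCA, the cyclic AMP response element. CACGTG was found for 5 of the 10 genes (6 of 13 windows), against 7.15% of all 32841 windows. No CACGTG overlapped any other motif. In the sequences of 150 bases before the start that follow, capitals mark CACGTG, and the first 5 are the genes that hold it.
Sycp1, chr3:102936101-102936250, minus strand: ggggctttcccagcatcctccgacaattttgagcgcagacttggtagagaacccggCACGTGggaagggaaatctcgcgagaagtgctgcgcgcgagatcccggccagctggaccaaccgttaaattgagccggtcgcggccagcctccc
Sycp3, chr10:88459437-88459586, plus strand: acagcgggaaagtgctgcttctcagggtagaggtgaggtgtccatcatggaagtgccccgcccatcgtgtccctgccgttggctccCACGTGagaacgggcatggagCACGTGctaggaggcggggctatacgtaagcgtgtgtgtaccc
Syce2, chr8:84872108-84872257, plus strand: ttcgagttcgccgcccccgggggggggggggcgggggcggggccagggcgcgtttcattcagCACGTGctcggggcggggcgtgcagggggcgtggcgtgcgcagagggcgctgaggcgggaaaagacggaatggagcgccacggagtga
Tex12, chr9:50561269-50561418, minus strand: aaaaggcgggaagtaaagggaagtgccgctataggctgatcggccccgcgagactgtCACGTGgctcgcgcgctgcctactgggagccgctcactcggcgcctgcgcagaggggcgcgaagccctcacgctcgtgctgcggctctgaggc
Hormad1, chr3:95559527-95559676, plus strand: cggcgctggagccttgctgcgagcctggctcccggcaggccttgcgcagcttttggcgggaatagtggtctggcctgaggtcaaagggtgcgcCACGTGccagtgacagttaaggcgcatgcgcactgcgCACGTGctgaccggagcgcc

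Sycp1, Syce2 and Tex12 held CACGTG once, at 94, 88 and 93 bases before the start. Sycp3 held it at 64 and 43 bases and Hormad1 at 57 and 20 bases before the start. The sequence of Syce2 belongs to the second of its 2 RefSeq starts, and the first has no CACGTG in its window. The other 5 genes, Sycp2, Syce1, Syce3, Hormad2 and Trip13, have no CACGTG in their windows. They include genes far from the mean profile of the 10 (Syce3 and Trip13) and one near it (Hormad2). The sequences of Syce3 and Trip13 are shown because the levels of these genes departed most from the others.
Syce3, chr15:89410264-89410413, minus strand: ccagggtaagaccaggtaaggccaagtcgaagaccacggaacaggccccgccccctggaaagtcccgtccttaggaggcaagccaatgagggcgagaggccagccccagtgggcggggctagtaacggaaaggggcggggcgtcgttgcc
Trip13, chr13:73937768-73937917, minus strand: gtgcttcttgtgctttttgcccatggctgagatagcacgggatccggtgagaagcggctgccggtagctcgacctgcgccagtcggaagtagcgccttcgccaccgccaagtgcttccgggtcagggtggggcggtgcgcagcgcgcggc

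TCCCGC was found for the same 5 genes as CACGTG (7 of 13 windows), against 20.0% of all windows. AACGG was found for Sycp1, Sycp3, Syce3 and Hormad2 (17.4% of all windows), CNCCTCAG for Sycp1, Syce2, Tex12 and Hormad2 (7.94% of all windows), and TGACGTCA for 0 of the 10 (1.79% of all windows). CpG sites numbered 34 in the window of Trip13 and 33 in the second window of Syce2, against a median of 7 over all windows, and the fewest among the 10 genes were the 5 in the second window of Syce3. Every window of the 10 genes but that one lay above the median. CACGTG and TCCCGC each contain a CpG, and the shares over all windows were not matched for CpG content. These matches describe the letters in the windows and were not tested as binding sites.

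Fragments assigned to genes numbered from 30439943 (Pld6 KO) to 63875934 (Dnmt3L heterozygote) per library. These totals exceed the reads per L/Z library stated in the methods of the study. The difference was not resolved, and the counting intervals use the fragments as deposited. The labels held for both targeted genes, with 14 fragments of Pld6 in Pld6 KO against 592 to 1643 in the other libraries, and 0 fragments of Dnmt3l in Dnmt3L KO (a count that allows up to 3) against 20 to 101. Expression is given as FPKM, the fragments of a gene scaled by the authors to gene length and library depth, so that levels can be compared between genes. The 10 genes were each well covered, from 617 fragments (Syce3 in Dnmt3L KO) to 61288 (Sycp2 in Pld6 WT). Cell markers, written as lists for each cell type, placed the libraries apart before any of the 10 genes was compared. All 12 L/Z markers outside the 10 genes, such as Dmc1 and Prdm9, were detected in all 4 libraries. Their summed level was 478.8 FPKM (Dnmt3L heterozygote) and 994.7 FPKM (Pld6 WT) in the controls and 319.8 FPKM (Dnmt3L KO) and 573.4 FPKM (Pld6 KO) in the mutants, so it was lower in each mutant than in its control and also lower in the Dnmt3L heterozygote than in Pld6 WT. Later and somatic cells differed more. The 10 spermatid markers summed to 7052 FPKM (Dnmt3L heterozygote) and 163 FPKM (Pld6 WT) in the controls, against 29.6 FPKM (Dnmt3L KO) and 11.9 FPKM (Pld6 KO) in the mutants, with 1 of the 10 at 0 in a library. The 9 pachytene markers summed to 1069 and 683 FPKM in these controls and to 101 and 143 FPKM in these mutants. The 12 Sertoli markers summed to 7471 FPKM (heterozygote) and 10100 FPKM (KO) in the Dnmt3L line, against 290 FPKM (WT) and 680 FPKM (KO) in the Pld6 line, with 0 of the 12 at 0 in any library. Both libraries of the Dnmt3L line thus had higher Sertoli marker levels than those of the Pld6 line. In bulk samples, fewer cells of a type and less RNA per cell cannot be told apart, and the part of these cell mixtures in the results that follow was not tested.

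**Figure D1:**
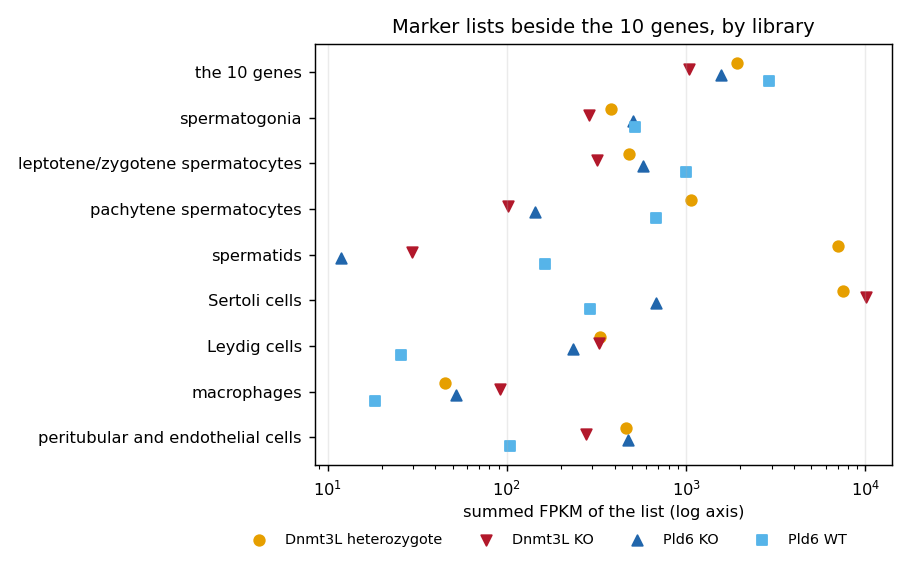
Summed FPKM (log axis) of the 10 synaptonemal complex and HORMA genes and of 8 marker lists, 1 point per library. The 10 genes and the L/Z markers order the libraries alike at both ends, with Pld6 WT highest and Dnmt3L KO lowest, while spermatid and Sertoli markers spread over a wider range.

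Together the 10 genes made up 0.253% of the fragments of the Dnmt3L heterozygote, 0.148% of Dnmt3L KO, 0.256% of Pld6 KO and 0.455% of Pld6 WT. Their summed level was 1923 FPKM (heterozygote) and 1040 FPKM (KO) in the Dnmt3L line and 2900 FPKM (WT) and 1573 FPKM (KO) in the Pld6 line. The Pld6 KO library thus came close to the heterozygous control of the other line, while its own control stood above all others. The order of the genes was stable at its ends. Sycp3 had the highest and Syce2 the second highest level in all 4 libraries, and Hormad2 and Trip13 had the lowest levels in all 4. The highest level was from 15.5 to 20.0 times the lowest within a library. By rank among all genes of a library, Sycp3 stood at 91 in Pld6 WT, 169 in Pld6 KO, 187 in the Dnmt3L heterozygote and 310 in Dnmt3L KO.

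**Figure D2:**
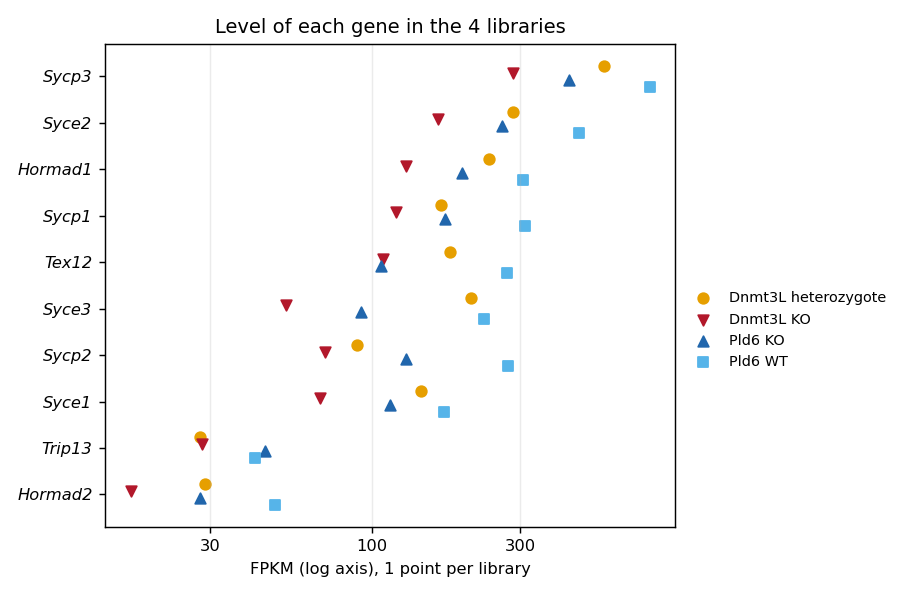
FPKM (log axis) of each of the 10 genes, ordered by its mean, with 1 point per library. For 7 genes both mutants (triangles) lie below both controls, and for Sycp1, Sycp2 and Trip13 they do not.

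Syce3 encodes a small central element protein that binds SYCP1 and is needed to begin the central element. The heterozygote held 208 FPKM (3314 fragments) and Pld6 WT 229.6 FPKM (2301 fragments), while Dnmt3L KO held 53.0 FPKM (617 fragments) and Pld6 KO 92.2 FPKM (718 fragments). The controls lay close together and both mutants lay far below them, with no overlap. Of the 8367 genes with a mean of at least 10 FPKM, 20.1% had both mutants below both controls by any amount. Dnmt3L KO had 25.5% of the level of its heterozygote (95% interval 23.4% to 27.8%, exact, counting error only), and Pld6 KO had 40.1% of the level of its WT (36.8% to 43.6%). In edgeR's quasi-likelihood test, with p-values adjusted by Benjamini-Hochberg over all genes, the log2 change against both controls was -2.06 ± 0.74 (SE) in Dnmt3L KO (adjusted p = 0.461) and -1.30 ± 0.70 in Pld6 KO (adjusted p = 0.842). With both mutants pooled it was -1.63 ± 0.46 (adjusted p = 0.269). When the line was added to that edgeR model as a block, which pairs each mutant with the control of its line, it was -1.68 ± 0.30 (adjusted p = 0.0178), and Syce3 was the 1 gene of the 10 that passed. The blocked model has 1 residual degree of freedom and called 5.98% of the 17686 genes tested as lower. With or without the block, the pooled model treats the 2 different knockouts as replicates of 1 mutant class. In the blocked model the residual spread is the difference between the changes in the 2 lines. Its p-values therefore do not measure a spread between replicates of a genotype.

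Tex12 encodes a partner of SYCE2 in the central element. Its levels were 178 FPKM (Dnmt3L heterozygote) and 271 FPKM (Pld6 WT) in the controls and 109 FPKM (Dnmt3L KO) and 107 FPKM (Pld6 KO) in the mutants. Both mutants stood at nearly the same level, under both controls. That level was 61.0% of the own control in the Dnmt3L line (counting interval 58.0% to 64.2%) and 39.4% in the Pld6 line (37.1% to 41.8%). With both mutants together, edgeR gave a log2 change of -1.09 ± 0.39 (SE), an unadjusted p of 0.0381 and an adjusted p of 0.444. With line as a block the adjusted p was 0.0731.

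Syce2 encodes the partner with which TEX12 assembles into fibres. It was at 284 FPKM (Dnmt3L heterozygote) and 465 FPKM (Pld6 WT) in the controls and 163 FPKM (Dnmt3L KO) and 262 FPKM (Pld6 KO) in the mutants. The Pld6 KO value lay just below the lower control (1.08-fold) and the Dnmt3L KO value 1.74-fold below it. Within a library, the level of Tex12 was 0.627 of that of Syce2 in the Dnmt3L heterozygote, 0.583 in Pld6 WT, 0.667 in Dnmt3L KO and 0.407 in Pld6 KO. The Pld6 KO library thus had the lowest Tex12 level for its Syce2.

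Syce1 encodes a central element protein that binds SYCE3. Its levels were 143 FPKM (Dnmt3L heterozygote) and 170.5 FPKM (Pld6 WT) in the controls and 67.9 FPKM (Dnmt3L KO) and 114 FPKM (Pld6 KO) in the mutants, so both mutants were below both controls. Dnmt3L KO had 47.4% of the level of its heterozygote (counting interval 45.7% to 49.1%) and Pld6 KO had 66.8% of that of its WT (64.4% to 69.2%). The ratio of Syce3 to Syce1 was 1.45 (heterozygote) and 1.35 (WT) in the controls and 0.780 (Dnmt3L KO) and 0.809 (Pld6 KO) in the mutants. Syce3 was above Syce1 in both controls and below it in both mutants. The ratio of Syce3 to Sycp1 was also lowest in the mutants, at 0.444 (Dnmt3L KO) and 0.539 (Pld6 KO). There the controls lay further apart, at 1.24 (heterozygote) and 0.737 (WT).

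Sycp1, the gene of the transverse filament, was at 167 FPKM (Dnmt3L heterozygote) and 311 FPKM (Pld6 WT) in the controls and 119 FPKM (Dnmt3L KO) and 171 FPKM (Pld6 KO) in the mutants. The Pld6 KO value lay between the controls and next to the heterozygote, although it was 55.0% of its own WT. Dnmt3L KO had 71.4% of the level of its heterozygote. The difference between the controls was thus larger than the difference within the Dnmt3L line, at -0.89 and -0.48 on the log2 scale.

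The lateral element genes departed from each other between the controls. Sycp3, whose protein forms the core fibres of the axis, was at 559 FPKM (Dnmt3L heterozygote) and 782 FPKM (Pld6 WT) in the controls and 285 FPKM (Dnmt3L KO) and 431 FPKM (Pld6 KO) in the mutants. Both mutants were below both controls, at 50.9% and 55.1% of the level of their own controls. Sycp2, whose protein binds SYCP3 and the axis, was at 89.2 FPKM (Dnmt3L heterozygote) and 274 FPKM (Pld6 WT) in the controls and 70.2 FPKM (Dnmt3L KO) and 128 FPKM (Pld6 KO) in the mutants. The level in Pld6 KO was above that of the heterozygote, and the controls differed by -1.61 on the log2 scale, the widest gap among the 10 genes. Within a library, Sycp2 was at 0.160 of the level of Sycp3 in the Dnmt3L heterozygote, 0.247 in Dnmt3L KO, 0.298 in Pld6 KO and 0.351 in Pld6 WT. Both libraries of the Dnmt3L line had a lower ratio than both of the Pld6 line.

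Hormad1, which recruits the break-forming machinery to unsynapsed axes, was at 238 FPKM (Dnmt3L heterozygote) and 305 FPKM (Pld6 WT) in the controls and 129 FPKM (Dnmt3L KO) and 194 FPKM (Pld6 KO) in the mutants. Hormad2, which acts in the checkpoint on unsynapsed axes, was at 28.9, 48.8, 16.8 and 27.8 FPKM in the same order. Both genes were lower in both mutants than in both controls, though Hormad2 in Pld6 KO lay only 1.04-fold below the lower control. Hormad2 stayed at a similar fraction of the level of Hormad1, from 0.122 in the Dnmt3L heterozygote to 0.160 in Pld6 WT.

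Trip13 differed from the other 9 genes. It was at 27.9 FPKM (Dnmt3L heterozygote) and 41.9 FPKM (Pld6 WT) in the controls and 28.4 FPKM (Dnmt3L KO) and 45.0 FPKM (Pld6 KO) in the mutants. Each mutant stood close to the control of its own line, at 102% in the Dnmt3L line (counting interval 96.9% to 107%) and 107% in the Pld6 line (102% to 113%). In edgeR its log2 change with both mutants together was 0.03 ± 0.43 (SE, adjusted p = 0.999), and with line as a block 0.03 ± 0.24 (adjusted p = 0.963). Relative to its substrate gene Hormad1, Trip13 stood at 0.117 in the Dnmt3L heterozygote and 0.137 in Pld6 WT, against 0.221 in Dnmt3L KO and 0.232 in Pld6 KO. The ratio was higher in both mutants than in both controls. TRIP13 is also expressed in dividing somatic and spermatogonial cells, where it acts on the HORMA protein MAD2. Of 11 spermatogonial markers, 3 were lower in Dnmt3L KO than in its control and 6 in Pld6 KO, with median log2 changes of 0.33 and -0.0895. Their sum was 75.9% and 97.3% of the control in the same order, so in Dnmt3L KO the sum was lower and the median change above 0. The part of spermatogonia in the level of Trip13 was not tested.

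**Figure D3:**
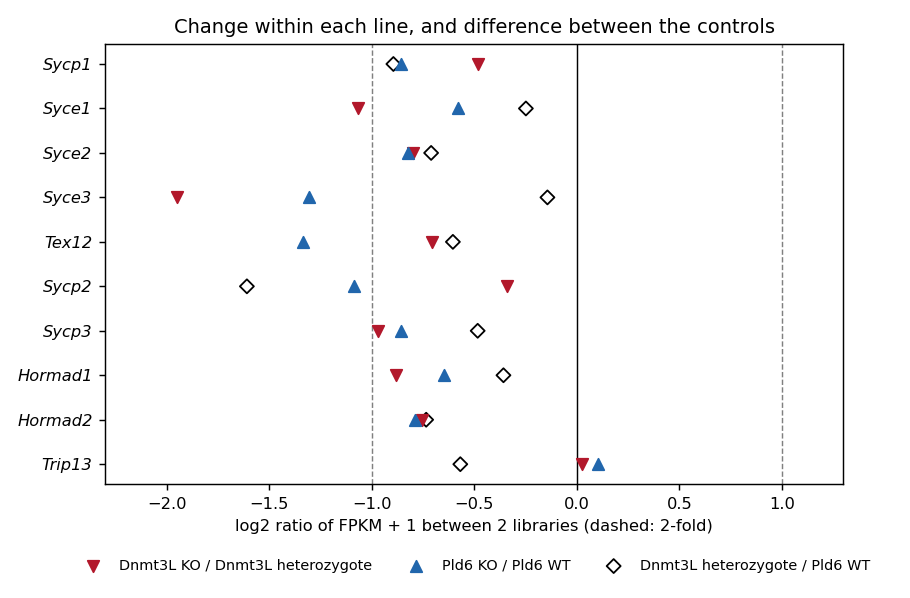
Log2 ratio of FPKM + 1 of each gene within the Dnmt3L line, within the Pld6 line and between the controls (1 library each, dashed lines at 2-fold). At these FPKM values 9 genes lie below 0 in both lines and Trip13 lies near 0, but 3 genes in each line, Trip13 among them, lie above their control when levels are taken relative to L/Z markers.

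As a group, the genes were compared with both controls by a rule without a test, namely FPKM + 1 more than 2-fold beyond both control libraries. In Dnmt3L KO, 2 of the 10 genes (Syce3 and Syce1) were lower by this rule and 0 were higher, against 5.78% lower among the 8367 genes with a mean of at least 10 FPKM and 2.14% higher among all 23980 genes. In Pld6 KO, 1 gene (Syce3) was lower and 0 were higher, against 5.29% lower among the 8367 genes and 1.04% higher among all genes. The shares of higher genes include genes of low level, so they cannot be set beside the shares of lower genes. Without the Dnmt3L heterozygote these counts of lower genes were 9 and 3, and without Pld6 WT they stayed at 2 and 1. With levels taken relative to the L/Z markers, both counts were 0. Levels below both controls, by any amount, were found for 9 genes in Dnmt3L KO (34.7% of the 8367 genes) and 7 in Pld6 KO (33.0%). For 7 of the 10 genes (all but Sycp1, Sycp2 and Trip13) both mutants were below both controls, against 20.1% (8 genes with TMM scaling, which adds Sycp1, and 1 gene relative to the L/Z markers). The mutants share these controls.

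Within the lines, 9 of the 10 genes were lower in Dnmt3L KO than in the heterozygote, against 46.4% of the 8367 genes, and 9 of 10 were lower in Pld6 KO than in WT, against 53.3%. With scaling to total fragments the first count was 10, Trip13 included, and relative to the L/Z markers 7 genes were lower in each line. More than 2-fold lower were 2 genes in the Dnmt3L line (Syce3 and Syce1, against 7.47%) and 3 in the Pld6 line (Syce3, Tex12 and Sycp2, against 6.62%). The median log2 change of the 10 genes was -0.78 in the Dnmt3L line and -0.84 in the Pld6 line, where the 8367 genes had medians of 0.04 and -0.04. Syce3 lay lower than all but 4.48% of these genes in the Dnmt3L line and all but 5.25% in the Pld6 line, and Trip13 lay above 49.0% and 62.4% of them. The controls themselves differed in the same sense: all 10 genes were lower in the Dnmt3L heterozygote than in Pld6 WT (49.8% of the 8367 genes were), with a median log2 difference of -0.59. The genes with CACGTG upstream ranged from -0.97 to -0.48 in the Dnmt3L line and from -1.34 to -0.65 in the Pld6 line. The genes without it ranged from -1.95 to 0.02 and from -1.31 to 0.10, so the ranges of both kinds overlapped in both lines.

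**Figure D4:**
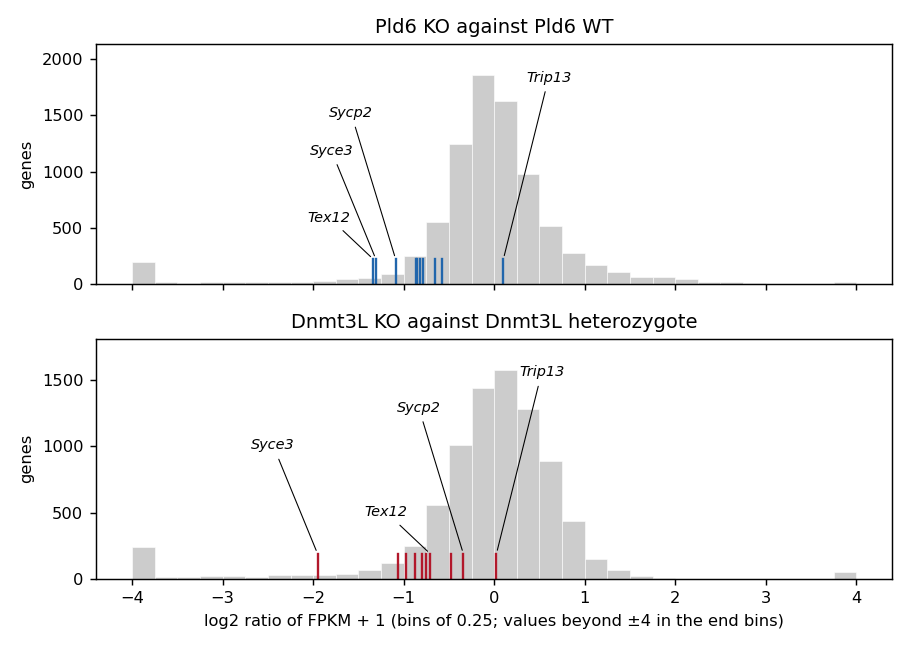
Number of genes with a mean of at least 10 FPKM (grey, 8367 genes) by log2 ratio of FPKM + 1 between a mutant and the control of its line, with the 10 genes as coloured ticks. All ticks but that of Trip13 lie left of 0 in each line, and Trip13 lies right of it, near the middle of the distribution, with the positions set by the authors' scaling.

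Models that take the 2 unlike controls as 1 group were fitted to the fragments of all genes. The gap between these controls thus enters the spread against which genes were called. edgeR's quasi-likelihood test called 0 of 18657 genes in Dnmt3L KO and 0 in Pld6 KO, and 0 of 17686 genes with both mutants together, at an adjusted p of 0.05. All 10 genes passed its filter on low counts, and 0 of them were called. At an unadjusted p under 0.05 it held 1 of the 10 genes in Dnmt3L KO (Syce3, against 7.72% of all genes lower), 0 in Pld6 KO (against 7.41%) and 2 with both mutants together (Syce3 and Tex12, against 8.75%). DESeq2 called 0 of the 10 in each comparison, with adjusted p of 0.144, 0.760 and 0.0801 for Syce3, while it called 4.47%, 4.65% and 5.93% of all genes lower. With line as a block in edgeR, 9 of the 10 genes (all but Trip13) had an unadjusted p under 0.05, against 11.8% of all genes lower, and the adjusted p of the genes other than Syce3 ran from 0.0731 (Tex12) to 0.963 (Trip13).

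Levels were then set against the summed L/Z markers of the same library, since those markers were also lower in each mutant, at 66.8% of the control in the Dnmt3L line and 57.6% in the Pld6 line. The log2 change of the marker sum, -0.58 and -0.79, is thereby taken out of every gene. The median of the 10 genes relative to the markers was 0.863 of its control in Dnmt3L KO and 0.967 in Pld6 KO. Between 0.8 and 1.25 of their control lay 6 genes in the Dnmt3L line and 7 in the Pld6 line. Below their control were 7 genes in each line, and above it were Sycp1 (1.07), Sycp2 (1.18) and Trip13 (1.52) in the Dnmt3L line and Syce1 (1.16), Hormad1 (1.10) and Trip13 (1.86) in the Pld6 line. Syce3 was at 0.382 of its control in the Dnmt3L line, the lowest of the 10, and at 0.696 in the Pld6 line, where Tex12 was at 0.683. By this scale Syce3 was the furthest below and Trip13 the furthest above in the Dnmt3L line, and Tex12 and Trip13 were so in the Pld6 line. Across all 4 libraries, both mutants were below both controls for 1 gene, Syce3, and above both for 1 gene, Trip13, when levels were taken relative to the markers (4.33% and 32.6% of the 8367 genes). By the same scale 1 gene was lower in the Dnmt3L heterozygote than in Pld6 WT, against all 10 by FPKM.

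The make-up of the summed level within each library, which no scaling between libraries can alter, was compared as well. Syce3 made up 10.8% of the summed FPKM in the Dnmt3L heterozygote and 7.92% in Pld6 WT, and 5.09% in Dnmt3L KO and 5.86% in Pld6 KO. Trip13 made up 1.45% and 1.44% in these controls, 2.73% in Dnmt3L KO and 2.86% in Pld6 KO. Both genes separated both mutants from both controls, Syce3 with a lower and Trip13 with a higher share. Sycp1 did so by less, at 8.68% (Dnmt3L heterozygote) and 10.7% (Pld6 WT), against 11.5% (Dnmt3L KO) and 10.9% (Pld6 KO). How often shares separate in this way by chance was not tested. By FPKM, Syce3 was the 1 gene with a lower share than its own control in both lines. Tex12 had a lower share in Pld6 KO (6.79% against 9.35%) and a higher one in Dnmt3L KO (10.4% against 9.25%), but as a share of the summed fragments, which weights genes by length, it was lower in Dnmt3L KO too (2.89% against 2.97%). Sycp3 held between 27.0% and 29.1% of the sum in all 4 libraries.

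**Figure D5:**
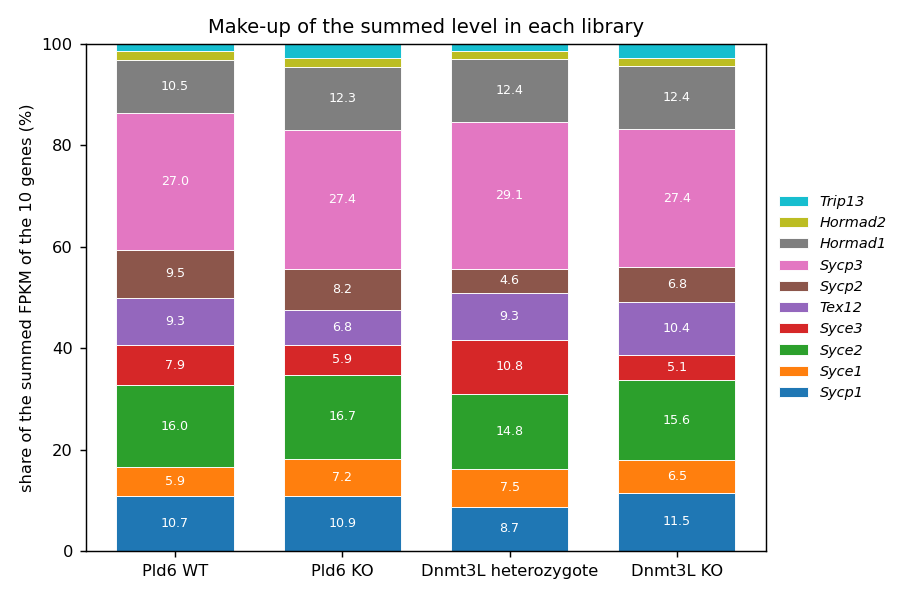
Share of each gene in the summed FPKM of the 10 genes, as a stacked bar to 100% for each library. The segment of Syce3 is narrower in each mutant than in both controls. Those of Trip13 at the top and, by less, Sycp1 are wider, and that of Sycp3 hardly differs.

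The genes whose profiles over the 4 libraries were most like the mean profile of the 10 were found by the Euclidean distance of centred log2(FPKM + 1), among 8357 other genes with a mean of at least 10 FPKM. The nearest were Boll (distance 0.0719), a germ cell RNA-binding protein gene, H2-D1 (0.0899), a major histocompatibility gene, Ribc1 (0.105), AK129341 (0.118) and Gins1 (0.152), a gene of the replication helicase. Of the 10 genes themselves, Syce2 (0.0755) and Hormad2 (0.1004) lay nearest to the mean profile. Syce3 (0.903) and Trip13 (0.871) lay farthest, with 2171 and 1934 other genes nearer. Boll, for example, was at 51.7 FPKM (heterozygote) and 30.2 FPKM (KO) in the Dnmt3L line and at 85.3 FPKM (WT) and 44.8 FPKM (KO) in the Pld6 line, the same order as Sycp3 and Syce2.

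Genes whose products act with these proteins were taken as 7 lists of 28 genes, of which 25 were in the table. Within the lines 24 of the 25 were lower in Dnmt3L KO, where 46.4% of the 8367 genes were, and 23 in Pld6 KO, where 53.3% were, but relative to the L/Z markers 10 and 9 of the 25 were lower. More than 2-fold lower were 5 and 6 of them, against 7.47% and 6.62% of the 8367 genes, and 0 were more than 2-fold higher in either line. The lists were not filtered by level and hold genes below that set, such as Slx with a mean of 1.63 FPKM. Shares of the 8367 genes are thus not matched to the lists by level, here and below. edgeR called 0 of the 25 in either mutant or with both together at an adjusted p of 0.05. In each of these comparisons 2 of the 25 were lower and 0 higher at an unadjusted p under 0.05. Over all genes tested, 7.72% were lower by that measure in Dnmt3L KO, 7.41% in Pld6 KO and 8.75% with both together. With line as a block 2 of the 25 passed as lower, against 5.98% of the 17686 genes tested. They were Mad2l2 (log2 change -1.38 ± 0.30, SE, adjusted p = 0.0410) and Slxl1 (adjusted p = 0.0318).

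Among the HORMA-fold genes and the TRIP13 adaptor, 1 of 5 was more than 2-fold lower than both controls in Dnmt3L KO (5.78% of the 8367 genes were) and 0 in Pld6 KO (5.29%). Mad2l2, whose product acts in DNA repair and in germ cell survival, was at 60.5 FPKM (Dnmt3L heterozygote) and 43.5 FPKM (Pld6 WT) in the controls and 18.3 FPKM (Dnmt3L KO) and 22.1 FPKM (Pld6 KO) in the mutants. Both mutants were below both controls. Mad2l1, which encodes the spindle checkpoint protein MAD2, was at 55.2, 84.5, 51.0 and 66.2 FPKM in the same order, so that Pld6 KO lay between the controls.

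The 5 telomere attachment genes, whose products tie chromosome ends to the nuclear envelope for pairing, were all lower by FPKM in each mutant than in its own control. Of the 8367 genes, 46.4% were lower in Dnmt3L KO and 53.3% in Pld6 KO. Sun1 changed least, with a log2 change of -0.15 in the Dnmt3L line and -0.06 in the Pld6 line. Relative to the L/Z markers, both mutants were above both controls for Sun1 (32.6% of the 8367 genes). They were below both for Ccdc79 (now Terb1) and 1700123I01Rik (4.33%). Ccdc155 (now Kash5), which links telomeres to the dynein motor, was at 27.2 FPKM (Dnmt3L heterozygote) and 47.5 FPKM (Pld6 WT) in the controls and 9.53 FPKM (Dnmt3L KO) and 27.4 FPKM (Pld6 KO) in the mutants. The gene 1700123I01Rik (now Majin), of the telomere anchor in the inner membrane, was at 12.7, 22.9, 5.79 and 8.61 FPKM in that order. By the rule of both controls 2 of these 5 genes were lower in Dnmt3L KO (against 5.78%) and 0 in Pld6 KO (against 5.29%).

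Of the other lists, 0 genes of the 4 axis cohesins, the 3 HORMAD1 partners in break formation that were found, the 4 crossover factors found and the central element partner 4930447C04Rik (now Six6os1) were more than 2-fold beyond both controls in either mutant. Among the cohesins, the log2 change ran from -0.56 (Rad21l) to -0.15 (Rec8) in the Dnmt3L line and from -0.68 (Smc1b, with Rad21l also at -0.68) to 0.31 (Rec8) in the Pld6 line. Among the HORMAD1 partners the range ran from -0.89 (2410076I21Rik, now Rec114) to -0.30 (Ccdc36, now Iho1) in the Dnmt3L line and from -0.63 (Mei4) to -0.54 (2410076I21Rik) in the Pld6 line. Among the crossover factors it ran from -0.44 (Ccnb1ip1) to -0.04 (Tex11) and from -0.92 (Msh5) to -0.29 (Tex11). The value of 4930447C04Rik was -0.32 and -0.89. Of the 3 relatives of SYCP2 and SYCP3 that were found, the X-linked Slx and Slxl1 were more than 2-fold lower than both controls in both mutants. Xlr was so in neither. Of the 8367 genes, 5.78% were lower by this rule in Dnmt3L KO and 5.29% in Pld6 KO. Slx, with a mean of 1.63 FPKM, lies below the level of that set. Slxl1 had 1110 fragments in the Dnmt3L heterozygote, 165 in Pld6 WT, 57 in Dnmt3L KO and 0 in Pld6 KO, and Slx had 113, 104, 14 and 4. Both are known from spermatids, whose markers were also lower in the mutants, and they belong to families of near-identical copies, so their values are uncertain.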

How the data were processed

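PolyA(+) RNA of 4 libraries of sorted L/Z spermatocytes was analysed. The authors prepared stranded libraries, generated single-end reads of 50 bp, and used TopHat2 for alignment and Cuffdiff for RefSeq gene levels (versions not given in the sources used here; build mm10 per the submitters' processing notes). The deposited table holds estimated counts of fragments per gene and library before scaling, of which 97.3% to 97.4% were whole, and the deposited FPKM. FPKM per fragment differed between libraries by 1 factor, within 0.1%, for 76.3% of the genes with more than 50 fragments in every library. The 10 genes departed from it by at most 0.903%. The authors' tool marked 31 values as failed, with 0 of them in the 10 genes. Reads carried no molecular identifiers, so intervals and floors cover counting error only, and the p-values measure the spread between these libraries, which the labels do not tie to separate animals.

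Changes were computed as log2((FPKM + 1)/(FPKM + 1)), a scale that understates changes of low genes. Fragments were rounded to whole numbers and tested with edgeR 4.0.16 in R 4.3.3 (quasi-likelihood test, TMM, filterByExpr, Benjamini-Hochberg at 0.05), in 3 groups (1 residual degree of freedom) or as 2 mutants against 2 controls (2 residual degrees of freedom). Each SE printed with an edgeR log2 change is the size of that change divided by the square root of the F statistic of the test. The script was tested on simulated data. Line as a block takes its pairing from the genotype labels, which name the line and no litter. Deviations of the libraries of a line from their class means correlated at 0.518 over 17686 genes. An exact permutation test of 1 value over 2 against 2 libraries cannot go below p = 0.333 and was not run. DESeq2 1.42.0, other scalings, pseudocounts, thresholds and left-out libraries were the alternatives. Counting intervals of ratios are exact binomial at 95%. Promoter windows came from RefSeq by gene symbol, with all 10 genes matched, and motifs were searched by letter.

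The 10 genes were listed by symbol and the rule uses no measured value, but they, the partner and marker lists and the motifs were chosen with earlier results of these data known. Named are all 10 genes, partner genes past the 2-fold rule or else the highest and lowest of each list, and the 5 nearest profiles. Mad2l1, Smc1b and Xlr were added after their values were seen.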

Additional observations from a re-analysis of the deposited data

Results flagged for a closer look

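Genes or lists that moved one way in the mutant of 1 line and the other way in the mutant of the other, relative to the control of that line, are listed here. None of these differences between lines was tested, since each genotype had 1 library.

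None of the 10 genes did so at the authors' scaling. Of the partner genes, Rec8, the meiotic cohesin subunit of the axis, had a log2 change of -0.15 in Dnmt3L KO and 0.31 in Pld6 KO. Atg13, a HORMA-fold gene of autophagy initiation, had a log2 change of 0.31 in Dnmt3L KO and -0.29 in Pld6 KO. Its partner Atg101, also of the HORMA fold, had -0.0523 in Dnmt3L KO and 0.30 in Pld6 KO. Of the marker lists, the log2 change of the summed Leydig cell markers was -0.0128 in Dnmt3L KO and 3.18 in Pld6 KO. The summed peritubular and endothelial markers had -0.75 in Dnmt3L KO and 2.19 in Pld6 KO.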

How the results depend on the processing

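The median log2 change of the 10 genes against the mean of both controls was -1.18 in Dnmt3L KO and -0.49 in Pld6 KO, and ran from -1.42 to -0.78 and from -0.84 to -0.20 when 1 control was left out. Scaling to the L/Z markers gave -0.0601 in Dnmt3L KO and -0.228 in Pld6 KO, and for the difference between the controls it turned the median from -0.59 to 0.45. The count of genes more than 2-fold lower than both controls was 2 in Dnmt3L KO. It was 0 with L/Z marker scaling, 7 at a 1.5-fold threshold, 1 at a 3-fold threshold and 2 to 9 with 1 control left out. In Pld6 KO the count was 1, and 0, 2, 0 and 1 to 3 under the same changes. No gene was higher than both controls by this rule when 1 control was left out. Without replicate pairing edgeR called 0 of the 10 genes with both mutants together, and 1 (Syce3) with line as a replicate block, while it called 0 with each library left out in turn. Over all genes the block called 1058 lower and 131 higher, and the model without it 0. Without the low count filter edgeR called 423 lower and 6 higher genes in Dnmt3L KO, 429 and 8 in Pld6 KO and 375 and 2 with both together, against 0 with it. DESeq2 called 919 and 17, 957 and 15, and 1220 and 37. The cause of these differences was not tested. The count of genes with a lower share in both mutants was 1 by FPKM (Syce3) and 2 by fragments (Syce3 and Tex12). Tests of a single mutant without 1 control were not run, because no residual degree of freedom is left. Counting error is small for these genes, and the lack of replicates limits every comparison.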
